A study of Mus musculus with 96 samples.

Results

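The islets of mice fed a high-fat diet (HFD) for 16 weeks were compared with those of mice fed a chow diet (CD) for the same 16 weeks. The comparison was defined by tissue, diet and time on diet alone and took in 8 of the 96 libraries of the series, 4 HFD mice against 4 CD mice, each mouse giving its own library. All mice were C57BL/6N males bought at 4 weeks of age. CD was LabDiet 5001 with 13.5% fat and HFD was Research Diets D12492 with 60% fat. Both groups therefore also differed in every other ingredient in which these products differ. Islets were freed with collagenase P, separated on a density gradient and picked by hand 2 times, and poly(A) RNA was sequenced on a BGISEQ-500. Values are FPKM, fragment numbers scaled to transcript length and to the fragments of the library, so levels of different genes can be set side by side. Levels are given per library or as mean ± SD of 4 libraries, and log2 fold changes (HFD minus CD, on log2(FPKM + 1)) as value ± SE.

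Pancreatic islets are small endocrine organs in which beta cells secrete insulin, alpha cells glucagon, delta cells somatostatin and PP cells pancreatic polypeptide. Insulin lowers blood glucose, glucagon raises it, and somatostatin restrains the release of both. The islets lie within exocrine tissue, whose acinar cells make digestive enzymes and whose ducts carry them away, and fragments of it can travel with picked islets. A prolonged high-fat diet makes tissues less responsive to insulin, and islets are known to answer with more beta cells and more insulin. In such bulk samples, fewer cells of a type and less RNA per cell cannot be told apart.

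All 8 libraries held the defining islet hormones at high levels. Ins1 and Ins2, the mouse insulin genes, made up 60.5 to 65.3% of the FPKM sum in the CD libraries and 67.9 to 73.8% in the HFD libraries. On log2(FPKM + 1), pairs of libraries of the same diet had Pearson r between 0.9882 and 0.9942, and pairs across diets between 0.9722 and 0.9846. No pair held the same values. The FPKM sum itself ran from 945068 to 1007205 in CD and from 1019955 to 1194895 in HFD, so that the sums differed with diet before any test. Ins1 and Ins2 together ran from 571441 to 657465 FPKM in CD and from 693051 to 882123 FPKM in HFD. Median ratio size factors, which weigh genes alike, overlapped, at 0.9676 to 1.043 in CD and 0.9348 to 1.027 in HFD. With them the median change over all tested genes was 0.03. Dividing all libraries to a common sum moved the median change over all tested genes from 0.01 to -0.13 on the log2 scale, leaving insulin out of the sum moved it to 0.19, and leaving acinar genes out moved it to -0.19. Where one of these scalings took a gene named below out of limma adjusted p under 0.05, that is said beside it. A lost call of a single gene means that loss throughout, whatever the size of its change. Losses through the minimum change of 1 enter only the counts of called genes.

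Of 11691 genes tested, 113 passed both limits of the comparison (limma adjusted p under 0.05 and a change of at least 1 on the log2 scale), 0.967% of the genes. Of these, 18 were higher in HFD islets (0.154%) and 95 were lower (0.813%). With insulin left out of the library sum the calls were 35 higher and 93 lower. At adjusted p under 0.05 alone, 988 genes (8.45%) passed, of which 386 rose (3.3%) and 602 fell (5.15%), a split that became 4805 against 411 with insulin left out, 736 against 645 with median ratio size factors, 104 against 2939 with acinar genes left out and 121 against 1343 with equal sums. In all 113 called genes the 4 HFD values lay wholly above or wholly below the 4 CD values, as they did in 15.4% of all tested genes. Most of the called genes had low levels: 66 of the 95 lower genes averaged under 10 FPKM in CD islets, and 13 of the 18 higher genes averaged under 10 FPKM in HFD islets. The share of all tested genes under 10 FPKM was not counted, so low levels are not read as a trait of the called genes.

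The hormones of the non-beta endocrine cells fell together while insulin did not. Gcg, which encodes glucagon, stood at 13204, 8525, 11896 and 10646 FPKM in the 4 CD libraries and at 2098, 1659, 2189.8 and 3596 FPKM in the 4 HFD libraries (log2 fold change -2.25 ± 0.26, limma adjusted p = 0.00297). Sst, which encodes somatostatin, stood at 2692, 2113, 2757 and 2832 FPKM in CD and at 493, 537, 579.6 and 1107 FPKM in HFD (log2 fold change -2.01 ± 0.27, limma adjusted p = 0.00656). For both hormones the highest HFD library, the same mouse in each case, remained well below the lowest CD library. Ppy, the pancreatic polypeptide gene, measured 2148, 2825, 2251 and 2727 FPKM in CD against 616, 1011, 736 and 923 FPKM in HFD (log2 fold change -1.61 ± 0.17, limma adjusted p = 0.000686). Its neighbour on chromosome 11, Pyy, which encodes peptide YY, measured 1257, 1203, 1166 and 1259 FPKM against 269, 309, 312 and 449.6 FPKM (log2 fold change -1.89 ± 0.13, limma adjusted p = 3.66e-05). The CD values of Pyy were the tightest of these hormones, and neither gene's groups overlapped. In the deposited table Gcg lies at chr2:62474530-62491679 and Sst at chr16:23889581-23890844, both on the minus strand of GRCm38.

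Further peptide genes of much lower level fell with them. Vip, which encodes vasoactive intestinal peptide, measured 8.15, 4.63, 16.6 and 17.3 FPKM in CD and 0.34, 0.86, 0.52 and 1.44 FPKM in HFD, the largest fall of all called genes (log2 fold change -2.70 ± 0.44, limma adjusted p = 0.0142). Npy, neuropeptide Y, measured 11.8, 4.76, 11.6 and 10.0 FPKM in CD and 0.15, 0.59, 1.03 and 1.57 FPKM in HFD (log2 fold change -2.52 ± 0.35, limma adjusted p = 0.00721). Both genes spread widely within CD, yet no HFD library reached the lowest CD library. Gal, which encodes galanin, was 3.75 ± 0.258 FPKM in CD and 0.637 ± 0.392 FPKM in HFD (SD, n = 4; log2 fold change -1.57 ± 0.15, limma adjusted p = 3.32e-05). Ghrl, the ghrelin gene of epsilon cells, was 5.74 ± 1.34 FPKM in CD and 1.47 ± 0.253 FPKM in HFD (log2 fold change -1.43 ± 0.13, limma adjusted p = 3.19e-05). Of the 20 islet peptide genes listed, 13 were tested, 8 fell and 4 rose, with a median change of -1.57 against 0.01 over all tested genes. The 8 falls held without any single library. The 4 rises were those of the beta cell peptides described below.

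The upstream sequences of these peptide genes were read because their transcripts fell together, and the 4 that carry a searched motif are printed. RefSeq sequences of GRCm38.p6 were found for all 8 peptide genes that fell (12 start sites, since Pyy and Ghrl have several), and the 250 bases before the transcript start were searched on both strands for the cyclic AMP response element TGACGTCA and for the TATA box letters TATAAA, which do not overlap in these windows. Capitals mark every match. The promoters lie at chr2:62483654-62483903, minus strand (Gcg), chr16:23890845-23891094, minus strand (Sst), chr11:102101320-102101569, minus strand (Ppy) and chr10:5638968-5639217, plus strand (Vip). The Sst window adjoins the span of Sst in the deposited table. The Gcg window lies inside the deposited span of Gcg, so RefSeq and that table place the start of Gcg differently.
Gcg: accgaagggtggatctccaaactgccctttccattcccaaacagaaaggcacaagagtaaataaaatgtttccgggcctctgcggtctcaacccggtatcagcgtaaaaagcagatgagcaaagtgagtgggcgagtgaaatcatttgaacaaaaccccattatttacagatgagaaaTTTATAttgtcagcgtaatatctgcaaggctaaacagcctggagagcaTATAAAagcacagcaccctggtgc
Sst: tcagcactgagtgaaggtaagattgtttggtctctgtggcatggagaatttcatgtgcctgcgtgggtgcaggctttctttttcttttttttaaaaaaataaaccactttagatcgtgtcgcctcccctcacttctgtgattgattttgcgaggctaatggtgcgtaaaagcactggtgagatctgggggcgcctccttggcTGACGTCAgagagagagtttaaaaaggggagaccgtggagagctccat
Ppy: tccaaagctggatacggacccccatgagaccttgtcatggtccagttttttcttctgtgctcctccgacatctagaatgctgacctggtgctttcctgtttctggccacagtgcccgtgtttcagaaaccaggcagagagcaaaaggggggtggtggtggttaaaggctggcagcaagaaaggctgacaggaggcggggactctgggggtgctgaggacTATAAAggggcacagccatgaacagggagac
Vip: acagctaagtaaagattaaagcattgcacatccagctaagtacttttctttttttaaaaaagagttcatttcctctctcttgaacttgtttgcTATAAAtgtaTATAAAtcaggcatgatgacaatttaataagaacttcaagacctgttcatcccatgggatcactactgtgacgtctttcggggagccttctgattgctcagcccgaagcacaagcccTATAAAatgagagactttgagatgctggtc
The full response element was found in Sst alone of the 8 genes, beginning 48 bases before the start, and it is present in 1.55% of all 32851 promoter windows of the table. Its first letters TGACG, not marked by capitals when alone, were also searched. They were found within the Sst element and in Vip, where they began 79 bases before the start, and in 17.8% of all windows. TATAAA was found in Gcg, Ppy and Vip, and in 12.4% of all windows. The last TATAAA match began 24 bases before the start in Gcg, 31 in Ppy and 30 in Vip. Npy, Pyy, Gal and Ghrl held neither motif in these windows.

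Transcription factors of the same cell types fell as well. Irx1, an Iroquois factor of alpha cells, measured 4.06, 2.96, 3.26 and 3.36 FPKM in CD and 0.61, 0.49, 0.95 and 1.36 FPKM in HFD (log2 fold change -1.27 ± 0.13, limma adjusted p = 6.26e-05). Its relative Irx2 measured 6.17, 4.61, 4.54 and 5.82 FPKM in CD and 1.5, 1.07, 1.55 and 1.88 FPKM in HFD (log2 fold change -1.33 ± 0.12, limma adjusted p = 1.05e-05). Every HFD library lay below every CD library in both genes. Of 13 alpha cell markers, 11 were tested, 8 fell and 1 rose, with a median of -1.27. The exception was Gc, the vitamin D binding protein, at 74.3 ± 7.46 FPKM in CD and 112 ± 24.1 FPKM in HFD (log2 fold change 0.56 ± 0.15, limma adjusted p = 0.0487). Its groups overlapped, and its call was lost in 6 of the 8 fits without a library, with a pseudocount of 0.1, under 2 scalings and with all islet groups in the fit. Hhex, the delta cell factor, measured 6.77, 4.64, 6.46 and 6.14 FPKM in CD and 1.89, 1.44, 2.02 and 1.95 FPKM in HFD (log2 fold change -1.30 ± 0.11, limma adjusted p = 6.49e-06). Rbp4, a retinol carrier abundant in delta cells, was 64.3 ± 4.92 FPKM in CD and 19.04 ± 6.69 FPKM in HFD (log2 fold change -1.76 ± 0.21, limma adjusted p = 0.00265). All 3 tested delta cell markers and both PP cell markers fell, with medians of -1.76 and -1.75, and these counts held without any single library and under each scaling. The count of alpha cell falls was 6 to 9 when single libraries were left out. The summed alpha cell markers took 0.955 to 1.5% of the FPKM sum in CD and 0.204 to 0.363% in HFD, and the delta cell markers 0.223 to 0.293% and 0.0499 to 0.0953%. These sums were mostly the hormones. Gcg alone took 0.875 to 1.4% in CD and 0.15 to 0.301% in HFD. Sst alone took 0.217 to 0.285% in CD and 0.0483 to 0.0926% in HFD.

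**Figure D1:**
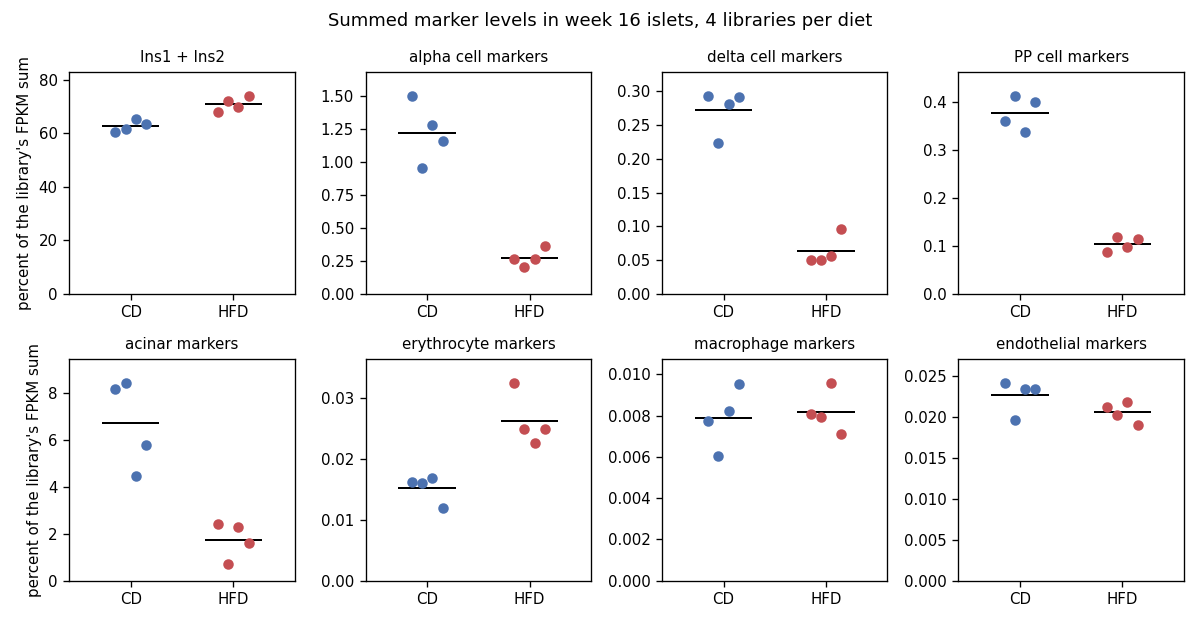
Share of each library's FPKM sum (percent, y axis, from 0) taken by Ins1 and Ins2 together and by 7 marker lists in the 4 CD and 4 HFD islet libraries of week 16; points are libraries and lines are group means. Alpha, delta, PP and acinar shares are lower in every HFD library than in any CD library, insulin and erythrocyte shares are higher, and macrophage and endothelial shares overlap.

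Most beta cell genes did not pass, and the 5 that did were higher in HFD islets. Ins1 measured 157416, 159813, 179279 and 161208 FPKM in CD and 191923, 222728, 214747 and 242088 FPKM in HFD (log2 fold change 0.40 ± 0.08, limma adjusted p = 0.00536), and Ins2 414025, 438756, 478186 and 468924 FPKM and 501128, 573376, 526125 and 640035 FPKM (log2 fold change 0.31 ± 0.09, limma adjusted p = 0.036). Iapp, which encodes the amyloid peptide secreted with insulin, was 27209 ± 2084 FPKM in CD and 34984 ± 2598 FPKM in HFD (log2 fold change 0.36 ± 0.08, limma adjusted p = 0.00788). Ucn3, a peptide of mature beta cells that acts on delta cells, was 298 ± 17.8 FPKM in CD and 409.7 ± 31.8 FPKM in HFD (log2 fold change 0.46 ± 0.07, limma adjusted p = 0.000674). In these 4 genes the HFD libraries lay above all CD libraries. Of 21 beta cell markers, all tested, 5 rose and none fell, the fifth being Nkx6-1, a factor that keeps beta cell identity (85.0 ± 11.3 FPKM in CD and 108 ± 7.38 FPKM in HFD; log2 fold change 0.35 ± 0.09, limma adjusted p = 0.0253). Of the 21, 13 had a change above 0 and 8 below, and the median was 0.03. These rises depended on the scale of the libraries: with equal sums Ins1, Ins2, Iapp and Ucn3 still passed and 2 members fell, with acinar genes left out Ins1 alone rose and 5 members fell, and with insulin left out 11 rose. Leaving out the HFD library with the lowest acinar share left 1 of the 5 rises, that of Ucn3. Over the 8 fits without a library, Nkx6-1 lost its call in 5, Ins2 in 4, and Ins1 and Iapp in 1 each. Ins2 also lost it with median ratio size factors (limma adjusted p = 0.0891), and Nkx6-1 with all islet groups in the fit (0.113). Mafa, the factor that drives insulin transcription in mature beta cells, measured 55.4, 66.0, 78.4 and 98.1 FPKM in CD and 45.5, 67.1, 66.4 and 72.7 FPKM in HFD, with overlapping groups (log2 fold change -0.23 ± 0.21, limma adjusted p = 0.581), and was at -0.46 (limma adjusted p = 0.0353) with acinar genes left out of the sum.

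**Figure D2:**
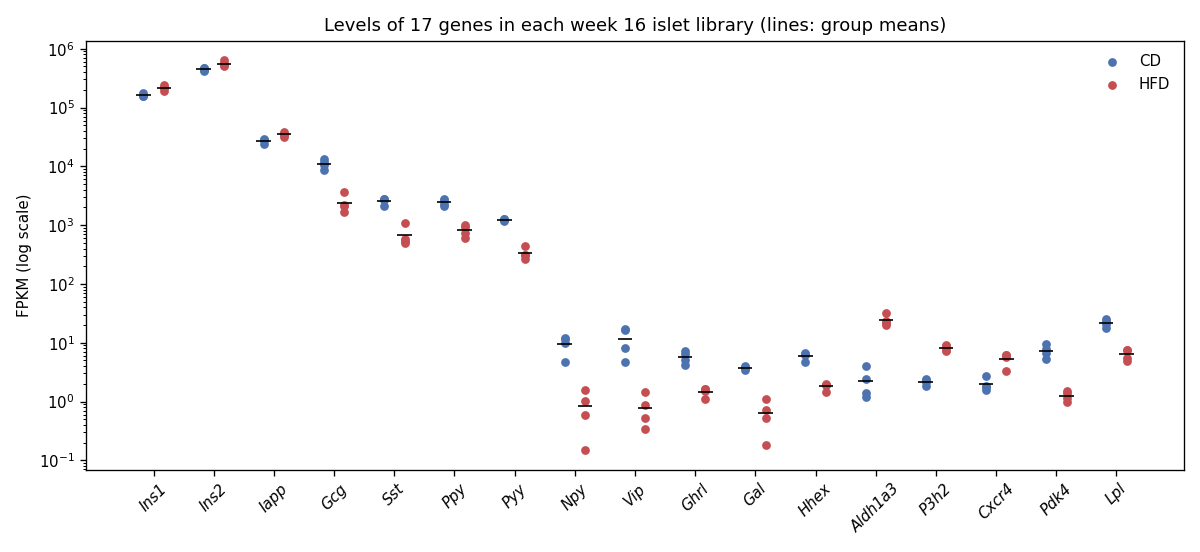
FPKM on a log axis of 17 genes in each of the 8 week 16 islet libraries; blue points are the 4 CD libraries, red points the 4 HFD libraries and lines the group means. From Gcg to Hhex every HFD point lies below the CD points, whereas Ins1, Ins2, Iapp, Aldh1a3, P3h2 and Cxcr4 have every HFD point above them.

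Aldh1a3, a retinaldehyde dehydrogenase known to appear in beta cells of diabetic mice, had the largest rise. It measured 1.38, 2.45, 1.21 and 3.98 FPKM in CD and 32.5, 22.1, 20.2 and 23.2 FPKM in HFD (log2 fold change 3.02 ± 0.29, limma adjusted p = 0.00123). The mean rose from 2.25 to 24.5 FPKM, and the lowest HFD library, at 20.2 FPKM, was far above the highest CD library, at 3.98 FPKM. The gene lies at chr7:66390892-66427477 on the minus strand. Within the dedifferentiation list, 5 of 8 members were tested, 2 rose and 2 fell. The second rise was Serpina7, thyroxine-binding globulin, at 6.86 ± 1.87 FPKM in CD and 15.6 ± 4.03 FPKM in HFD (log2 fold change 1.07 ± 0.24, limma adjusted p = 0.0394), which lost its call without any of 6 of the 8 libraries. The falls were Neurog3, the endocrine progenitor factor (2.57 ± 0.81 FPKM in CD and 1.14 ± 0.385 FPKM in HFD; log2 fold change -0.73 ± 0.17, limma adjusted p = 0.0217), and Myc, a growth regulator (2.02 ± 0.18 FPKM in CD and 1.29 ± 0.233 FPKM in HFD; log2 fold change -0.40 ± 0.09, limma adjusted p = 0.0154). Without single libraries Neurog3 and Myc each lost their call in 2 of 8 fits, and with all islet groups in the fit Myc and Serpina7 lost it.

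Most of the other higher genes had low levels. P3h2, a collagen prolyl 3-hydroxylase, measured 1.87, 2.33, 2.15 and 2.38 FPKM in CD and 8.74, 7.62, 9.02 and 7.2 FPKM in HFD (log2 fold change 1.52 ± 0.09, limma adjusted p = 6.58e-07). Slc35f4, a member of a solute carrier family, measured 0.56, 0.78, 0.76 and 0.87 FPKM in CD and 3.68, 3.67, 4.16 and 3.59 FPKM in HFD (log2 fold change 1.46 ± 0.09, limma adjusted p = 6.58e-07). These shared the smallest adjusted p of the comparison. All CD values of Slc35f4 were under 1 FPKM, so it entered the test through its HFD level alone. Gabra4, a subunit of the GABA-A receptor, was 1.92 ± 0.0678 FPKM in CD and 6.15 ± 1.28 FPKM in HFD (log2 fold change 1.28 ± 0.11, limma adjusted p = 8.08e-06), and Aass, which starts lysine breakdown, was 1.39 ± 0.277 FPKM in CD and 4.3 ± 0.229 FPKM in HFD (log2 fold change 1.15 ± 0.09, limma adjusted p = 6.38e-06). The small GTPases of the Ras family Rasd2 (log2 fold change 1.38, adjusted p = 1.05e-05 by limma) and Rasl10b (1.44, adjusted p = 3.91e-05) and the exchange factor Rapgef5 (1.13, adjusted p = 0.000335) rose as well. Gucy2c, the guanylate cyclase receptor for guanylin, rose from 7.06 to 20.5 FPKM in the mean (log2 fold change 1.40 ± 0.17, limma adjusted p = 0.00148). Dapl1 (1.33, adjusted p = 0.00177), Cpne4, a copine (1.35, adjusted p = 0.00035), and Lmo1, a LIM domain protein (1.24, adjusted p = 0.0224), complete the 12 largest rises by limma. The rise of Lmo1 lost its call without any of 4 libraries. Under the minimum change of 1, for Me3 by less than the rounding shown, but with small adjusted p stood Me3, a mitochondrial malic enzyme (1.87 ± 0.338 FPKM in CD and 4.72 ± 0.357 FPKM in HFD; log2 fold change 1.00 ± 0.10, limma adjusted p = 2.13e-05), Jam2, a junctional adhesion molecule (11.4 ± 0.644 FPKM in CD and 19.8 ± 1.56 FPKM in HFD; log2 fold change 0.75 ± 0.07, limma adjusted p = 2.13e-05), and Slc4a10, a sodium bicarbonate transporter (6.31 ± 0.354 FPKM in CD and 12.0 ± 1.45 FPKM in HFD; log2 fold change 0.83 ± 0.08, limma adjusted p = 3.19e-05). Vstm2a measured 0.26, 0.15, 0.16 and 0.27 FPKM in CD and 1.85, 1.46, 1.86 and 1.22 FPKM in HFD, at the edge of the filter (log2 fold change 1.096 ± 0.10, limma adjusted p = 1.86e-05).

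The chemokine receptors and their ligand moved in opposite directions. Cxcr4 measured 1.86, 1.59, 1.77 and 2.74 FPKM in CD and 6.15, 5.74, 6.3 and 3.32 FPKM in HFD (log2 fold change 1.08 ± 0.18, limma adjusted p = 0.00475). Ackr3, the scavenger receptor for the same ligand, was 1.52 ± 0.4 FPKM in CD and 3.36 ± 1.06 FPKM in HFD (log2 fold change 0.77 ± 0.17, limma adjusted p = 0.0192). Cxcl12, the ligand of both, was 2.55 ± 0.884 FPKM in CD and 0.915 ± 0.0982 FPKM in HFD (log2 fold change -0.85 ± 0.16, limma adjusted p = 0.00512). Groups did not overlap in any of the 3 genes. The call of Ackr3 was lost without any of 4 libraries and under 2 scalings.

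Among genes of fuel choice and fatty acid handling, a few fell while the list as a whole stayed at the median of all genes. Pdk4, which shuts pyruvate out of the citrate cycle, measured 9.37, 5.32, 7.82 and 6.75 FPKM in CD and 1.38, 1.0, 1.16 and 1.51 FPKM in HFD (log2 fold change -1.86 ± 0.13, limma adjusted p = 6.38e-06). Lpl, the lipase that frees fatty acids from lipoproteins, measured 25.7, 18.0, 23.8 and 20.6 FPKM in CD and 5.56, 4.97, 7.61 and 7.54 FPKM in HFD (log2 fold change -1.64 ± 0.14, limma adjusted p = 8.45e-05). Every HFD library lay below every CD library in these genes. Of 32 tested lipid genes, 5 fell (15.6%) and 1 rose (3.12%), 16 had a change above 0 and 16 below, and the median was 0.02. With insulin left out of the sum 14 rose and 5 fell, and with acinar genes left out 0 rose and 8 fell. The falls included Scd1, a fatty acid desaturase (1.74 ± 0.457 FPKM in CD and 0.497 ± 0.0727 FPKM in HFD; log2 fold change -0.86 ± 0.11, limma adjusted p = 0.000241), and Plin3, a lipid droplet coat protein (2.87 ± 0.353 FPKM in CD and 1.6 ± 0.246 FPKM in HFD; log2 fold change -0.57 ± 0.10, limma adjusted p = 0.00175). The rise was Hadh, a fatty acid oxidation enzyme that also restrains insulin release (314 ± 16.4 FPKM in CD and 368 ± 25.7 FPKM in HFD; log2 fold change 0.23 ± 0.07, limma adjusted p = 0.0485), whose change became -0.006 with acinar genes left out of the sum and 0.07 with equal sums, and whose call was lost in 7 of the 8 fits without a library. Hadh also lost its call with all islet groups in the fit. None of 18 cholesterol synthesis genes passed by limma at adjusted p under 0.05, and 2 had an unadjusted p under 0.05, against 23.2% of all tested genes. Of these, 7 rose with insulin left out and 1 fell with acinar genes left out.

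Glucose metabolism as a list was near the median of all genes, with 5 of 28 tested members falling (17.9%) and none rising. Besides Pdk4 these were Fbp1, the gluconeogenic fructose bisphosphatase (2.73 ± 0.519 FPKM in CD and 1.07 ± 0.257 FPKM in HFD; log2 fold change -0.84 ± 0.12, limma adjusted p = 0.000407), Hk1, a hexokinase kept low in beta cells (2.66 ± 0.46 FPKM in CD and 1.39 ± 0.146 FPKM in HFD; log2 fold change -0.61 ± 0.10, limma adjusted p = 0.00157), Ldha, lactate dehydrogenase (7.14 ± 1.14 FPKM in CD and 4.56 ± 0.508 FPKM in HFD; log2 fold change -0.54 ± 0.10, limma adjusted p = 0.00379), and Glud1, glutamate dehydrogenase (36.9 ± 1.59 FPKM in CD and 31.2 ± 1.19 FPKM in HFD; log2 fold change -0.23 ± 0.06, limma adjusted p = 0.025). In the whole list 9 genes rose and 4 fell with insulin left out, and 12 fell with acinar genes left out. The fall of Glud1 did not pass once insulin was left out of the sum, nor in 4 of the 8 fits without a library, and that of Ldha did not pass with all islet groups in the fit. Ldha also belongs to the genes that beta cells normally keep silent. Of 14 tested members of that list, 8 fell and none rose, with a median of -0.45. Oat, ornithine aminotransferase, was 4.22 ± 0.55 FPKM in CD and 1.94 ± 0.187 FPKM in HFD (log2 fold change -0.82 ± 0.09, limma adjusted p = 6.26e-05), Acot7, an acyl-CoA thioesterase, was 2.48 ± 0.507 FPKM in CD and 0.965 ± 0.119 FPKM in HFD (log2 fold change -0.81 ± 0.11, limma adjusted p = 0.000277), and Mgst1, a microsomal glutathione transferase, was 5.76 ± 1.28 FPKM in CD and 2.37 ± 0.709 FPKM in HFD (log2 fold change -1.01 ± 0.16, limma adjusted p = 0.00373). Tgm2, transglutaminase 2, spread from 2.23 to 5.87 FPKM in CD and from 1.39 to 1.82 FPKM in HFD (log2 fold change -1.01 ± 0.21, limma adjusted p = 0.0191). The fall of Tgm2 was lost in 4 of the 8 fits without a library. The count of falls was 7 to 11 when single libraries were left out. These genes are expressed in non-beta cells, and the markers of alpha, delta, PP and acinar cells fell in the same libraries; their part in this result was not tested.

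Genes of secretion were read against 3.3% of all tested genes rising and 5.15% falling. Of 14 prohormone processing genes, all tested, 2 rose (14.3%): Scg2, secretogranin II, at 3441 ± 359.5 FPKM in CD and 4948 ± 322 FPKM in HFD (log2 fold change 0.53 ± 0.08, limma adjusted p = 0.000686), and Pcsk1n, an inhibitor of prohormone convertase, at 243 ± 41.9 FPKM in CD and 312 ± 20.0 FPKM in HFD (log2 fold change 0.37 ± 0.10, limma adjusted p = 0.0425), whose groups overlapped and whose call was lost in 6 of the 8 fits without a library, with acinar genes left out and with equal sums. Of 16 tested exocytosis genes, 3 fell (18.8%), namely Doc2b, a calcium sensor (1.15 ± 0.0735 FPKM in CD and 0.463 ± 0.0568 FPKM in HFD; log2 fold change -0.56 ± 0.08, limma adjusted p = 0.000676), the plasma membrane syntaxin Stx1a (4.14 ± 0.376 FPKM in CD and 2.9 ± 0.345 FPKM in HFD; log2 fold change -0.40 ± 0.09, limma adjusted p = 0.0111), and the active zone protein Rims2 (8.78 ± 0.372 FPKM in CD and 7.28 ± 0.471 FPKM in HFD; log2 fold change -0.24 ± 0.07, limma adjusted p = 0.046). Rims2 lost its call in all 8 fits that left out a library, and Doc2b entered the test through its CD level alone. Of 19 tested ion channels, 2 fell (10.5%): Cacna1d, an L-type calcium channel (20.9 ± 1.61 FPKM in CD and 16.1 ± 1.64 FPKM in HFD; log2 fold change -0.36 ± 0.08, limma adjusted p = 0.0113), and Trpm2, a cation channel (2.32 ± 0.294 FPKM in CD and 1.62 ± 0.202 FPKM in HFD; log2 fold change -0.34 ± 0.09, limma adjusted p = 0.0393). Neither these falls nor that of Rims2 passed once insulin was left out of the sum, nor with all islet groups in the fit. That of Trpm2 was also lost in 6 of the 8 fits without a library. Of 17 tested receptors, 2 fell (11.8%): Ffar4, a fatty acid receptor found in delta cells (2.58 ± 0.259 FPKM in CD and 0.748 ± 0.17 FPKM in HFD; log2 fold change -1.03 ± 0.10, limma adjusted p = 1.84e-05), and Cckar, the cholecystokinin receptor of acinar cells (6.32 ± 0.887 FPKM in CD and 1.72 ± 0.791 FPKM in HFD; log2 fold change -1.47 ± 0.20, limma adjusted p = 0.00251). In the insulin signaling list Grb10, an adaptor that damps the insulin receptor, fell from 7.89 to 3.1 FPKM in the mean (log2 fold change -1.12 ± 0.11, limma adjusted p = 3.2e-05), while its relative Grb14 was 12.4 ± 0.76 FPKM in CD and 15.5 ± 0.622 FPKM in HFD (log2 fold change 0.30 ± 0.07, limma adjusted p = 0.0107) and did not pass with acinar genes left out (0.08) or with equal sums (0.15). Counts of these lists turned with the scale: with insulin left out the rises and falls were 7 and 0 for prohormone processing, 4 and 1 for exocytosis, 7 and 0 for ion channels and 3 and 2 for receptors. With acinar genes left out they were 1 and 6, 0 and 8, 0 and 8, and 0 and 6.

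Stress and growth lists were read against the same shares of all genes. Of 25 tested genes of the unfolded protein response, 1 rose (4%), the endoplasmic reticulum protein Creld2 (32.1 ± 2.71 FPKM in CD and 41.3 ± 6.22 FPKM in HFD; log2 fold change 0.35 ± 0.09, limma adjusted p = 0.0392), with overlapping groups and a call lost in 6 of the 8 fits without a library, with acinar genes left out and with equal sums. With all islet groups in the fit Creld2 did not pass either. In this list 8 genes rose with insulin left out and 5 fell with acinar genes left out. None of 10 tested genes of the integrated stress response passed by limma, with 1 at an unadjusted p under 0.05, and the same settings gave 2 rises and 2 falls. Of 13 tested proliferation genes, 1 fell (7.69%), the replication helicase subunit Mcm6 (4.38 ± 0.501 FPKM in CD and 3.16 ± 0.433 FPKM in HFD; log2 fold change -0.37 ± 0.10, limma adjusted p = 0.0281), and 16 of the 29 listed did not reach 1 FPKM in 4 libraries. The same settings gave 2 rises and 6 falls, and Mcm6 did not pass with insulin left out or in 3 of the 8 fits without a library. Of 14 antioxidant genes, 2 fell (14.3%): Gpx3, a secreted glutathione peroxidase (135 ± 21.6 FPKM in CD and 55.3 ± 12.1 FPKM in HFD; log2 fold change -1.29 ± 0.17, limma adjusted p = 0.00309), and Cat, catalase (5.14 ± 0.473 FPKM in CD and 3.83 ± 0.372 FPKM in HFD; log2 fold change -0.35 ± 0.08, limma adjusted p = 0.0193), which did not pass with insulin left out. Cat also lost its call with all islet groups in the fit and in 2 of the 8 fits without a library. The list had 7 rises and 1 fall with insulin left out and 5 falls with acinar genes left out. Of 13 tested interferon genes, Usp18 rose (9.8 ± 0.642 FPKM in CD and 15.2 ± 2.25 FPKM in HFD; log2 fold change 0.57 ± 0.09, limma adjusted p = 0.00125) and Rsad2 fell (3.81 ± 0.631 FPKM in CD and 2.74 ± 0.22 FPKM in HFD; log2 fold change -0.36 ± 0.10, limma adjusted p = 0.0388). The call of Rsad2 was lost in 6 of the 8 fits without a library, with no filter (limma adjusted p = 0.0535), with insulin left out (0.117) and with all islet groups in the fit (0.075). Of 7 tested progenitor and duct factors, 3 fell (42.9%), among them Gata6 (3.34 ± 0.328 FPKM in CD and 1.56 ± 0.228 FPKM in HFD; log2 fold change -0.76 ± 0.09, limma adjusted p = 0.000127) and Prox1 (13.4 ± 0.377 FPKM in CD and 10.0 ± 1.25 FPKM in HFD; log2 fold change -0.40 ± 0.08, limma adjusted p = 0.00552). None of 11 tested immediate early genes, 14 clock genes and 4 genes of MHC class II passed by limma, with 1, 0 and 0 at an unadjusted p under 0.05. These lists had 0, 1 and 1 rises with insulin left out, and 2, 3 and 1 falls with acinar genes left out.

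**Figure D3:**
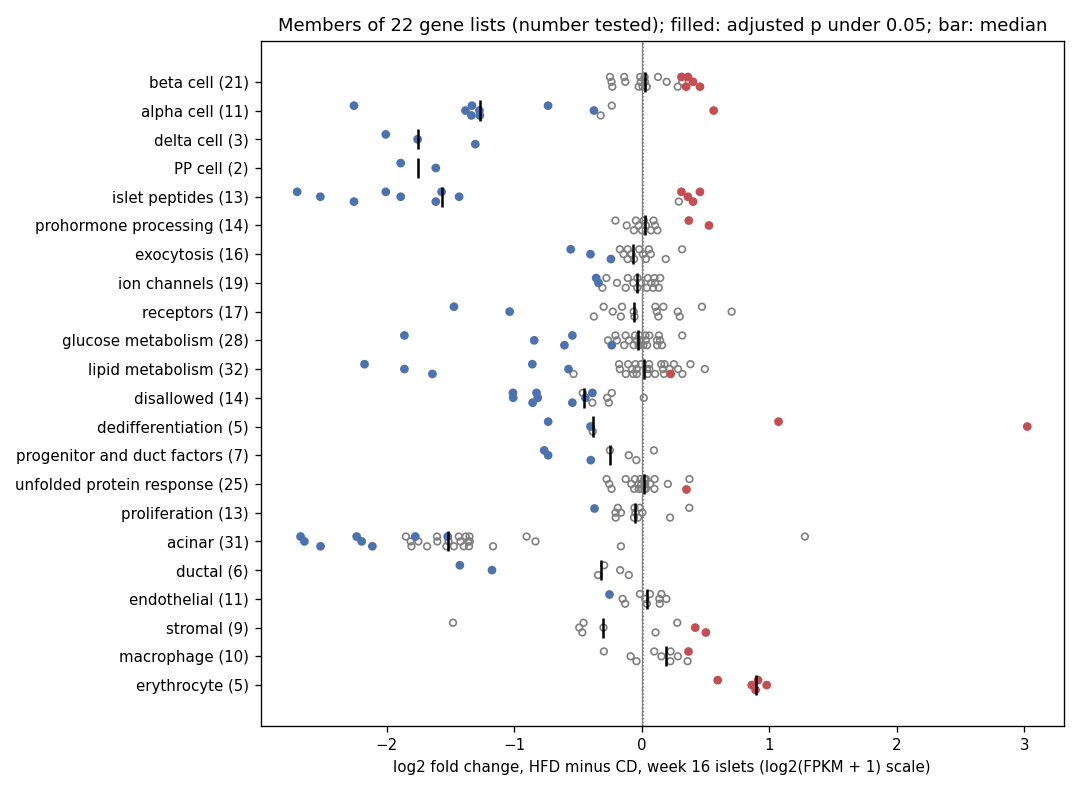
Log2 fold change (HFD minus CD, log2(FPKM + 1) scale, x axis) of the tested members of 22 gene lists in week 16 islets, with the number tested after each name; red points rose and blue points fell at limma adjusted p under 0.05, open points did not pass, black bars are list medians, and the dotted line is the median of all genes at 0.01. Alpha, delta, PP, islet peptide and acinar lists lie mainly below -1, the erythrocyte list near 0.9, and most other lists around 0.

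Exocrine genes formed the other large group of falls. Amy2a5, the main pancreatic amylase gene, measured 30905, 32671, 17993 and 21473 FPKM in CD and 6267, 1701, 5742 and 4172 FPKM in HFD (log2 fold change -2.64 ± 0.47, limma adjusted p = 0.0207). Pla2g1b, pancreatic phospholipase A2, measured 173, 166, 103 and 130.4 FPKM in CD and 31.8, 9.95, 27.6 and 22.4 FPKM in HFD (log2 fold change -2.67 ± 0.38, limma adjusted p = 0.00928). In both genes the same HFD mouse was the lowest, and the groups did not overlap. The glycoprotein Gp2 (-2.52, adjusted p = 0.0223), the lectin Zg16 (-2.11, adjusted p = 0.0315) and the trypsin Try4 (-2.19, adjusted p = 0.0313) of the zymogen granule also fell by limma. Amy2a5, Amy2a4, Amy2b and Amy1 are related genes of similar sequence, so reads may have been divided among them. The falls of Amy1 and Amy2b lost their call in 0 of the 8 fits without a library, and that of Amy2a4 in 5. Of 31 tested acinar markers, 8 fell and none rose, with a median of -1.52, and 30 of the 31 had a change below 0. The falls of Amy2a5 and Gp2 were lost without any of 3 CD libraries and those of Try4 and Zg16 in most fits without a library. The count of falls was 21 without the HFD library of lowest acinar share and 3 without any of those 3 CD libraries. With insulin left out of the sum it was 17, and with acinar genes left out 23. The summed acinar markers took 8.16, 8.41, 4.44 and 5.78% of the FPKM sum in CD and 2.39, 0.692, 2.29 and 1.59% in HFD.

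Other cell types gave smaller signals. All 5 erythrocyte markers rose, with a median of 0.89, among them the globin genes Hba-a1 (50.7, 49.5, 56.1 and 37.5 FPKM in CD and 108, 96.7, 80.4 and 99.2 FPKM in HFD; log2 fold change 0.98 ± 0.12, limma adjusted p = 0.000688) and Hbb-bs (57.4, 58.9, 58.8 and 41.8 and 121, 98.0, 87.4 and 105 FPKM; log2 fold change 0.91 ± 0.13, limma adjusted p = 0.00123). These genes have near-identical copies as well. The count of 5 held without any single library, under each scaling and under the lower pseudocount, but not with all 12 islet groups in the fit. Alas2, which makes heme in red cells, was 0.777 ± 0.132 FPKM in CD and 1.69 ± 0.241 FPKM in HFD (log2 fold change 0.60 ± 0.10, limma adjusted p = 0.00117). It entered the test through its HFD level alone. Of 6 tested ductal markers, 2 fell: Tspan8, a tetraspanin (21.4 ± 2.95 FPKM in CD and 8.91 ± 1.21 FPKM in HFD; log2 fold change -1.17 ± 0.11, limma adjusted p = 3.19e-05), and Muc1, a mucin (4.92 ± 0.798 FPKM in CD and 1.24 ± 0.504 FPKM in HFD; log2 fold change -1.43 ± 0.16, limma adjusted p = 0.000187). The ductal keratin gene Krt19 did not reach the filter, at 0.85 to 3.34 FPKM in CD and 0.47 to 0.8 FPKM in HFD. Of 9 tested stromal markers, 5 had a change below 0, with a median of -0.30 and a lowest value of -1.48, and none fell. The 2 that rose are both expressed in pericytes: Rgs5 (37.2 ± 1.2 FPKM in CD and 53.4 ± 5.9 FPKM in HFD; log2 fold change 0.50 ± 0.08, limma adjusted p = 0.000663) and Pdgfrb (3.77 ± 0.388 FPKM in CD and 5.37 ± 0.307 FPKM in HFD; log2 fold change 0.42 ± 0.08, limma adjusted p = 0.00447). Pdgfrb did not pass with acinar genes left out (limma adjusted p = 0.105) or with equal sums (0.0718). Of 10 tested macrophage markers, 1 rose, Adgre1, which encodes F4/80 (1.58 ± 0.0995 FPKM in CD and 2.33 ± 0.31 FPKM in HFD; log2 fold change 0.36 ± 0.09, limma adjusted p = 0.0202), with a call lost under the same scalings and in 3 of the 8 fits without a library. Of 11 tested endothelial markers, 1 fell, Flt1, a receptor for vascular endothelial growth factor (20.3 ± 1.32 FPKM in CD and 16.8 ± 0.569 FPKM in HFD; log2 fold change -0.26 ± 0.06, limma adjusted p = 0.0233), which was at -0.07 (limma adjusted p = 0.463) with insulin left out and lost its call in 4 of the 8 fits without a library. Flt1 also lost its call with all islet groups in the fit. No T cell or adipocyte marker reached the filter, and Cd3e, which defines T cells, stood at 0 to 0.38 FPKM in CD and 0 to 0.05 FPKM in HFD. The acinar and erythrocyte levels moved with diet beside every result above, and their part in those results was not tested.

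Among the falls of smallest adjusted p were genes outside the lists. Rcn3, a calcium-binding protein of the endoplasmic reticulum, measured 9.56, 7.52, 8.81 and 9.37 FPKM in CD and 3.03, 2.56, 3.0 and 3.12 FPKM in HFD (log2 fold change -1.32 ± 0.09, limma adjusted p = 1.1e-06). Stxbp5l, a tomosyn that binds syntaxin, measured 2.79, 2.47, 2.61 and 1.92 FPKM in CD and 0.19, 0.25, 0.26 and 0.34 FPKM in HFD (log2 fold change -1.45 ± 0.10, limma adjusted p = 1.28e-06). Upp1, uridine phosphorylase, measured 11.6, 10.4, 14.3 and 12.7 FPKM in CD and 4.09, 4.45, 4.16 and 4.96 FPKM in HFD (log2 fold change -1.28 ± 0.09, limma adjusted p = 1.98e-06). None of these overlapped between diets. Vwde (-1.44, adjusted p = 1.98e-06), Mcoln3, a cation channel of endosomes (-1.13, adjusted p = 6.38e-06), Gm609 (-1.62, adjusted p = 6.38e-06) and Epb41l4a (-1.18, adjusted p = 6.38e-06) were also among the 10 smallest adjusted p of the falls by limma, as was Pdk4.

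The called genes were then followed in the islets of other mice fed for 4, 8, 12, 20 and 24 weeks, each week with its own 4 CD mice. Of the 18 higher genes, those with the same sign numbered 13 of 15 tested, 16 of 16, 17 of 17, 17 of 17 and 18 of 18 in these weeks. The share of all tested genes with an effect above 0 was 38, 22.2, 52.2, 46.3 and 71.6%. At adjusted p under 0.05 with the same sign stood 0, 9, 13, 12 and 17 of them, where 0, 5.27, 4.53, 4.74 and 8.3% of all genes passed in either direction. The number called was 0, 2, 7, 6 and 15, against a background of higher calls of 0, 0.0688, 0.0886, 0.137 and 0.299%. Of the 95 lower genes, the same sign was seen in 77 of 92, 83 of 94, 91 of 91, 70 of 90 and 89 of 89, where 62, 77.8, 47.8, 53.7 and 28.4% of all genes were below 0. At adjusted p under 0.05 with the same sign stood 0, 26, 59, 47 and 55 of these. Their called numbers were 0, 1, 26, 38 and 43, against backgrounds of 0, 0.0258, 0.257, 0.41 and 0.436%. In all, 15 of the 18 and 57 of the 95 were called in the same direction in at least 1 other week.

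Effects on single genes are given from week 4 to week 24 on the log2 scale. The effect on Gcg was -0.15, -0.58, -1.41, -2.25, -2.07 and -2.93 and that on Sst was -0.22, -0.71, -1.21, -2.01, -2.16 and -2.67. The effect on Amy2a5 was -1.22, -0.75, -2.71, -2.64, 0.09 and -1.68. The median over the acinar markers was -1.6, -1.52, 0.88 and -0.56 from week 12 to week 24, whereas the alpha cell median was -0.9, -1.27, -1.09 and -1.08. The 20 lower genes with the opposite sign at week 20 included the exocrine genes Amy2a4, Amy2a5, Ctrc, Gp2, Try4, Zg16 and Cckar. Aldh1a3 had effects of 0.66, 1.56, 2.68, 3.02, 1.91 and 3.01. Ins1 had 0.01, 0.19, 0.61, 0.40, 0.17 and 0.02.

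**Figure D4:**
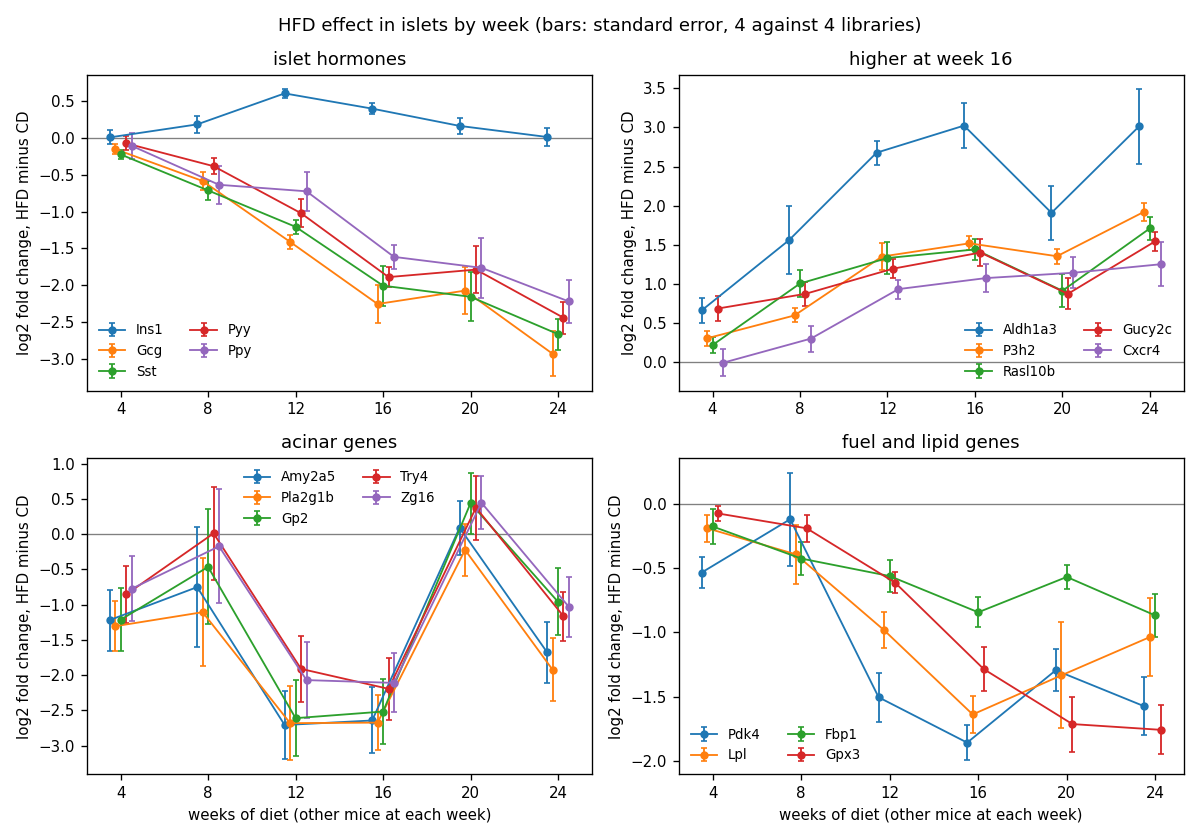
Log2 fold change (HFD minus CD, y axis, with standard error bars) of 19 genes in islets after 4 to 24 weeks of diet (x axis), each week from 4 HFD and 4 CD mice of its own. Gcg, Sst, Pyy and Ppy lie further below 0 at weeks 16 to 24 than at weeks 4 and 8, and Aldh1a3 is above 0 at every week. The acinar genes are lowest at weeks 12 and 16, and Amy2a5, Gp2, Try4 and Zg16 lie above 0 at week 20.

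Whether the HFD effect at week 16 differed from that at neighbouring weeks was tested in a fit of all 48 islet libraries. Against week 12, 1 of 11791 genes passed (0.00848%; 2.21% at an unadjusted p under 0.05), Stxbp5l, whose effect was lower by 0.88 ± 0.16 on the log2 scale at week 16 (difference -0.88, limma adjusted p = 0.0311); it did not pass with a pseudocount of 0.1, without the filter, with median ratio size factors, or in 6 of the 8 fits without a library. Stxbp5l did not reach the filter at week 12 and entered this test through its CD level at week 16. Against week 20, 0 of 11890 genes passed (0%), with 888 at an unadjusted p under 0.05 (7.47%), and 9 passed when the fit held the 4 groups of these weeks alone. The difference for Gcg was -0.85 ± 0.34 against week 12 and -0.18 ± 0.34 against week 20 (limma adjusted p = 1 and 0.936). The difference for Amy2a5 was 0.06 ± 0.78 against week 12 and -2.73 ± 0.78 against week 20 (limma adjusted p = 1 and 0.198). The difference of Amy2a5 against week 20 therefore did not pass the correction despite its size.

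The liver of the same 8 mice gave a further reading of the diet at week 16. There 143 of 10113 genes were called (1.41%), 122 higher and 21 lower. Of the 18 genes higher in islets, 4 were tested in liver and 1 was called in the same direction, Serpina7, which the liver secretes (14.0 ± 6.49 FPKM in CD and 76.8 ± 28.1 FPKM in HFD; log2 fold change 2.43, limma adjusted p = 0.00768). Of the 95 genes lower in islets, 32 were tested in liver, 11 had the same sign and none was called lower, against 0.208% of liver genes. Lpl was called in the opposite direction, at 2.1 ± 0.544 FPKM in CD liver and 6.59 ± 1.2 FPKM in HFD liver (log2 fold change 1.30 ± 0.15, limma adjusted p = 0.00111). Pdk4 did not pass in liver, where the HFD mice spread widely (23.0 ± 35.5 FPKM; limma adjusted p = 0.492). The difference between tissues was not tested.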

How the data were processed

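Per the labels, RNA of 48 islet and 48 liver libraries was sequenced; per the submitters' processing notes the tools were HISAT2 2.0.4, Bowtie2 2.2.5, RSEM 1.1.12 and DESeq2, and the build was GRCm38.p5. The authors deposited FPKM per gene, rounded to 2 decimals, in a table of 21990 genes of which 20155 held values; 1273 symbols were updated by gene identifier from RefSeq. Read counts are not in that table, so no counting error is given, and the 4 libraries per group limit the precision. The authors' own columns of fold changes, p-values and q-values were not used.

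The test took genes that reached 1 FPKM in 4 or more of the 8 libraries, on log2(FPKM + 1), with limma 3.58.1 (R 4.3.3; variance trend, robust), Benjamini-Hochberg adjusted over all tested genes; fold changes on this scale understate changes of low genes. A gene was called at adjusted p under 0.05 when its log2 fold change was 1 or more in size. A lost call of a single named gene refers to adjusted p alone. Some genes reached 1 FPKM in the libraries of 1 diet only and were tested through that diet. Among them were Slc35f4, Vstm2a and Alas2 through HFD, and Stxbp5l, Doc2b and Scd1 through CD. The code was tested on simulated data. Named genes were the 12 largest changes among called genes and the 10 smallest adjusted p in each direction, and members of fixed gene lists (those of smallest adjusted p and those defining the list). Members and lists were chosen with earlier results of these data known. Other weeks and the liver were fitted alone in the same way, and differences between weeks were contrasts in 1 fit of all 48 islet libraries. Alternatives changed the pseudocount, filter, scaling, variance model, samples in the fit and each library in turn; equal sums and the removal of acinar genes from the sum were added after seeing the data. Promoters were RefSeq windows of GRCm38.p6. Replicate numbers only name mice, whose identities differ between diets. Some genes that the naming rule covers are not reported here; the counts include them.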

Additional observations from a re-analysis of the deposited data

Results flagged for a closer look

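In 8 of 210 groups of 4 libraries, over 105 named genes, a single library stood apart from the other 3 by Dixon's criterion, which chance exceeds in about 1 in 20 groups. Sst was 1107 FPKM in 1 HFD library, above the other 3, and Epb41l4a was 0.56 FPKM in the same library. In 1 CD library Hbb-bs was 41.83 FPKM and Alas2 was 0.58 FPKM, both apart from the rest. In another CD library Fbp1 was 1.95 FPKM and Doc2b was 1.04 FPKM. Slc35f4 was 4.16 FPKM in 1 HFD library, and Dapl1 was 24.63 FPKM in 1 CD library.

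The HFD effect on Stxbp5l differed between weeks 16 and 12 by -0.878 on the log2 scale in the test of that difference. Stxbp5l did not reach the filter at week 12, and the difference was lost in most fits without a library. Further genes moved in opposite directions in week 16 islets and in a second set of samples, with no overlap between diets in either, and for these the difference was not tested. In the liver of the same mice the log2 effects were -3.916 for Ins1, 0.7833 for Tgm2, 1.297 for Lpl, 0.5807 for Plin3, 0.5478 for Gpx3, 0.1566 for Cat, 0.6556 for Rsad2 and 0.8271 for Rcn3. The level of Ins1 in liver, 199 ± 314 FPKM in CD and 15 ± 17.3 FPKM in HFD, varied strongly between mice. It was far below the level of this beta cell gene in the islets of the same mice. The source of Ins1 in liver was not tested, and no effect of diet on liver is read from it. In islets of week 4 the effects were -0.2293 for Nkx6-1 and -0.1971 for Usp18, and in islets of week 8 the effect on Myc was 0.7361.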

How the results depend on the processing

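The count of 113 called genes became 217 (40 higher, 177 lower) with a pseudocount of 0.1, 172 (11 higher, 161 lower) with acinar genes left out of the library sum, and 988 (386 higher, 602 lower) with no minimum fold change, and the higher genes numbered 35 with insulin left out. With acinar genes left out all 95 lower but 11 of the 18 higher genes were shared, and with insulin left out all 18 higher but 73 of the 95 lower genes. Without 1 library the count ran from 95 to 125, with 15 to 22 higher and 73 to 109 lower. With a pseudocount of 0.1 the week 16 genes called at week 8 were 4 higher and 6 lower, and at week 12 they were 11 and 42. The difference between weeks 16 and 12 gave 0 genes with a pseudocount of 0.1, with no filter and with median ratio size factors, and 0 to 1 without 1 library. The difference between weeks 16 and 20 gave 9 genes when the fit held the 4 groups of those weeks alone, and 0 to 1 without 1 library. Of 105 named genes, 1 reversed: Hadh, at -0.006 with acinar genes left out. With all 12 islet groups in the fit 18 of the 105 no longer had limma adjusted p under 0.05. They were the 4 globin genes, Alas2, Nkx6-1, Gc, Flt1, Myc, Serpina7, Ldha, Cacna1d, Trpm2, Rims2, Creld2, Hadh, Cat and Rsad2. The cause of these shifts was not tested. No paired analysis was possible because the numbers of the mice are only names, and each mouse received 1 diet. Read depth is not in the table used here, so low FPKM values carry an unknown counting error.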

Other observations

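The Reg genes, which encode secreted regenerating proteins of the exocrine pancreas, had large changes that did not pass. Of 7 listed, 4 were tested and none passed by limma, with all 4 at an unadjusted p under 0.05, while 3 fell with insulin and 3 with acinar genes left out of the sum. Their log2 fold changes were -1.65, adjusted p = 0.085 for Reg1, -2.71, adjusted p = 0.0814 for Reg2, -2.87, adjusted p = 0.132 for Reg3b and -1.85, adjusted p = 0.0615 for Reg3d by limma. Prss1, a trypsinogen gene with near-identical relatives, was the single acinar marker with a change above 0 (1.28, adjusted p = 0.237 by limma). Its HFD libraries lay above all CD libraries, and it passed as a rise in 1 of the fits without an HFD library.

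Pathways of the table's own KEGG annotation, an assignment of genes to metabolic and signaling maps, were read against 3.3% of all tested genes rising and 5.15% falling. Lysosome genes had 10 rises and 3 falls of 141 tested, with a median of 0.08. Genes of protein processing in the endoplasmic reticulum had 9 rises and 2 falls of 196, and protein export genes 2 rises and 0 falls of 28. Oxidative phosphorylation had 5 rises and 2 falls of 123, the citrate cycle 1 rise and 7 falls of 48, the ribosome 1 rise and 0 falls of 152, and the proteasome 0 rises and 2 falls of 49. Pancreatic secretion had 1 rise and 16 falls of 112, and insulin secretion 3 rises and 10 falls of 82. ECM-receptor interaction had 4 rises and 7 falls of 99, T cell receptor signaling 1 rise and 0 falls of 75, steroid biosynthesis 0 rises and 1 fall of 18, and maturity onset diabetes of the young 4 rises and 2 falls of 27. The direction of most of these counts turned with the scale. With insulin left out of the sum the rises and falls were 87 and 0 for lysosome, 103 and 1 for protein processing, 20 and 0 for protein export, 81 and 2 for oxidative phosphorylation, 21 and 5 for the citrate cycle, 82 and 0 for the ribosome, 26 and 1 for the proteasome, 25 and 22 for pancreatic secretion, 23 and 7 for insulin secretion and 38 and 4 for ECM-receptor interaction. With acinar genes left out they were, in that order, 0 and 20, 3 and 37, 0 and 6, 0 and 19, 0 and 14, 0 and 54, 0 and 18, 0 and 52, 1 and 36, and 3 and 24. T cell receptor signaling had 29 rises or 17 falls, steroid biosynthesis 6 rises and 1 fall or 5 falls, and maturity onset diabetes 8 rises and 2 falls or 1 rise and 12 falls. Without 1 library the rises of lysosome genes ran from 3 to 15.

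Immune cells other than macrophages left little RNA in these libraries. Summed T cell markers ran from 1.03 to 6.35 FPKM in CD and from 0.76 to 1.42 FPKM in HFD, and B cell markers from 9.22 to 38.02 and from 4.35 to 11.61 FPKM. Ms4a1, which defines B cells, spread from 0.06 to 4.27 FPKM in CD and from 0.07 to 0.37 FPKM in HFD. The highest CD values of these, and of Cd3e, came from the same CD library. The other CD libraries reached at most 1.56 FPKM for T cell markers, 16.59 FPKM for B cell markers and 0.85 FPKM for Ms4a1.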
